A study of Mus musculus with 16 samples.

Results

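Trbv13-1 and Trbv13-2 are V genes of the mouse T cell receptor β (TCRβ) locus, and their use was described in the T cells of KPC.Luc tumors grown under the skin. KPC.Luc is a mouse line of pancreatic ductal adenocarcinoma that expresses luciferase. All rearrangements that were assigned to V gene TCRBV13-01 (Trbv13-1) or TCRBV13-02 (Trbv13-2) were taken, which gave 30227 of the 198953 rearrangements listed over 16 mice. Of the 33 V genes with productive templates these were 2. Productive rearrangements, meaning those in frame and without a stop codon, numbered 8186 for Trbv13-1 and 13010 for Trbv13-2. Out-of-frame rearrangements numbered 3442 and 5500, and rearrangements with a stop codon numbered 35 and 54.

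All mice were female C57BL/6 and bore KPC.Luc tumors. The control group was given a scrambled peptide with an isotype control IgG. ANT008 mice received ANT008, a peptide antagonist of the receptors for vasoactive intestinal peptide, together with IgG. Anti-PD-1 mice received scrambled peptide and an antibody against the checkpoint receptor PD-1, and combination mice received ANT008 and anti-PD-1. Peptide was given at 10 µg per day under the skin and antibody at 200 µg every 3 days into the abdomen, over 10 days, with 4 mice per group. Per the labels, T cells were pulled from tumor suspensions with magnetic beads against CD90.2, a surface protein of mouse T cells, whereas the study's methods name that selection for another assay and for TCR sequencing name harvested tumors only. Neither source separates CD4+, CD8+ and unconventional T cells. A change in the share of a V gene and a change in the number of cells that carry it cannot be told apart.

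The values were template counts, which are whole-number estimates of starting molecules made by the sequencing service (immunoSEQ assay). The labels and the study's methods for TCR sequencing name RNA, and its results text names DNA, so a template may be a transcript rather than a cell. Productive templates per mouse ranged from 7180 to 72588 with a median of 32564, and unique productive rearrangements ranged from 2526 to 13939. Both were lowest in anti-PD-1 replicate 4. A count of 0 in the smallest library still allows a share of up to 0.0418% of productive templates (3 templates), and intervals and limits given here cover counting error only.

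Trbv13-1 and Trbv13-2 encode the Vβ chains known from antibody staining as Vβ8.3 and Vβ8.2, and Trbv13-3 encodes Vβ8.1. The Vβ8 family is a common target of the superantigen staphylococcal enterotoxin B. Vβ8.2 is also the V region most often carried by invariant natural killer T (NKT) cells, along with Vβ7 (Trbv29) and Vβ2 (Trbv1), but those cells are defined by their α chain, which was not sequenced. A V gene is first joined to D and J segments with random trimming and addition of nucleotides, and only the in-frame products can be selected in the thymus and expanded by antigen. The out-of-frame products ride along in the same cells and were used here as a reference for rearrangement without selection on the receptor. In the GRCm38.p6 gene order the 2 genes lie in 1 cluster, as Trbv12-1, Trbv13-1, Trbv12-2, Trbv13-2, Trbv12-3 (a pseudogene), Trbv13-3 and Trbv14.

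The ends of the 2 genes show how a short read tells them apart and how their CDR3s differ. The CDR3 is the loop that contacts peptide, and it begins at the conserved cysteine codon (tgt). The lines below give the most common sequence of untrimmed reads, 5′ to 3′, over the last 30 bases before the CDR3 and its first 14 bases. Capitals mark the bases at which Trbv13-1 and Trbv13-2 differ from each other, and for Trbv13-3 those at which it differs from Trbv13-2.
Trbv13-1: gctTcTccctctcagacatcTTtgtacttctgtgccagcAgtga
Trbv13-2: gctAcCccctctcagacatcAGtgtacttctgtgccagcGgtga
Trbv13-3: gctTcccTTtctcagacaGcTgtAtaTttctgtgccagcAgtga

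The Trbv13-1 sequence was carried by 92.4% of 2026 untrimmed productive rearrangements and the Trbv13-2 sequence by 91.9% of 3804. The 2 genes differed at 5 of these 44 bases, of which 1 lies in the CDR3. That base turns the fourth CDR3 residue from serine (agt) in Trbv13-1 to glycine (ggt) in Trbv13-2. Unresolved reads were few. Of productive rearrangements, 3 were tied between Trbv13-1 and Trbv13-2, and 93, with 112 templates, were tied between Trbv13-2 and Trbv13-3, and these were assigned to neither gene.

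Trbv13-2 was the most diverse V gene of these tumors, but not the most abundant. It took up 10.1% ± 1.12 of unique productive rearrangements (SD, n = 16 mice, range 7.60 to 11.9), the highest mean of all V genes, and it ranked first in 13 of 16 mice and no lower than 4 in any. By templates it took up 6.59% ± 3.10 (range 3.65 to 17.1) and ranked 7. Each unique Trbv13-2 rearrangement held 3.11 ± 2.94 templates on average. Its share of unique rearrangements exceeded its share of templates in 15 of 16 mice. The exception was control replicate 4, in which 1 rearrangement dominated the gene.

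Trbv13-1 was less diverse and carried more templates per rearrangement. It took up 6.23% ± 0.890 of unique productive rearrangements (range 4.79 to 8.31, rank 5 by mean) and 7.01% ± 3.80 of templates (range 2.35 to 16.6, rank 6). A unique Trbv13-1 rearrangement held 4.89 ± 3.07 templates. Its unique share exceeded its template share in 8 of 16 mice. Trbv13-3, the remaining Vβ8 gene, took up 5.66% of unique rearrangements and 9.31% of templates, the highest template share of all V genes, and its unique share exceeded its template share in 0 of 16 mice.

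Within each mouse, Trbv13-2 exceeded Trbv13-1 in unique share by 3.86 points ± 0.826 (SD), in 16 of 16 mice (exact sign-flip permutation test over mice, two-sided, p = 3.05e-05, the smallest p that 16 mice allow). The margin was 4.43 points in control, 3.82 in ANT008, 3.82 in anti-PD-1 and 3.36 in combination mice. In templates no such order was seen. Trbv13-2 exceeded Trbv13-1 in 8 of 16 mice, with a mean difference of -0.42 points ± 4.91 (exact p = 0.740). By group this template difference was 3.85 points ± 4.79 (SD) in control mice, where all 4 mice had more Trbv13-2. The widest gap among them was that of control replicate 4, at 17.1% against 6.29%. In ANT008, anti-PD-1 and combination mice the difference was -2.02 ± 5.93, -0.36 ± 2.43 and -3.15 ± 4.33 points. Within 1 group of 4 mice the smallest p this test allows is 0.125.

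The V genes whose unique share moved most like that of each gene from mouse to mouse were, for Trbv13-1, Trbv1 (Spearman's rho 0.71 over 16 mice), Trbv13-2 (0.70) and Trbv12-1 (0.54). For Trbv13-2 they were Trbv13-1 (0.70), Trbv1 (0.63) and Trbv31 (0.50). The comparison covered 19 V genes with a mean share of at least 1%. The shares of 1 mouse come from 1 library and add up to a whole, so these coefficients are given as a description.

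The first question of the design is whether either V gene changed with treatment. By templates, Trbv13-1 was 2.35%, 7.37%, 4.55% and 6.29% in control replicates 1 to 4. It was 4.65%, 5.88%, 16.6% and 4.13% in the ANT008 mice, and 4.73%, 5.02%, 7.12% and 4.48% in the anti-PD-1 mice. In the combination mice it was 14.04%, 7.47%, 10.97% and 6.49%. All 4 combination mice lay above the control mean and 3 of 4 above the highest control mouse, whereas in the ANT008 group 1 mouse, replicate 3, stood far above the others.

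The Trbv13-1 template share averaged 5.14% ± 2.19 in control, 7.81% ± 5.89 in ANT008, 5.34% ± 1.21 in anti-PD-1 and 9.74% ± 3.45 in combination mice (SD, n = 4). The combination mean was higher than control by 4.60 points (SE 2.57), which did not pass the exact permutation Dunnett test (two-sided, p = 0.213). Without ANT008 replicate 3, whose spread enters that test, the same difference had an exact p of 0.0332. The ANT008 difference from control was then -0.26 points. Over the 16 fits that each left out 1 mouse, the exact Dunnett p of the combination ranged from 0.0332 to 0.562, and 1 fit passed. In the edgeR quasi-likelihood test over 26 V genes the combination reached 0.92 on the log2 scale (SE 0.47, adjusted p 0.235).

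Trbv13-2 made up 5.13%, 7.52%, 6.17% and 17.1% of templates in control replicates 1 to 4. The values were 7.86%, 5.32%, 6.03% and 3.93% in ANT008 mice, 6.54%, 3.92%, 3.65% and 5.82% in anti-PD-1 mice and 6.06%, 7.05%, 5.46% and 7.79% in combination mice. The groups overlapped, and the highest value was that of control replicate 4. The means were 8.99% ± 5.52, 5.79% ± 1.64, 4.98% ± 1.41 and 6.59% ± 1.03. The largest difference from control was with anti-PD-1, at -4.004 points (SE 2.13, exact Dunnett p = 0.149). In the edgeR test its log2 fold change was -0.85 (SE 0.42, adjusted p 0.270). Without control replicate 4 this difference was -1.29 points (exact p = 0.466).

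**Figure D1:**
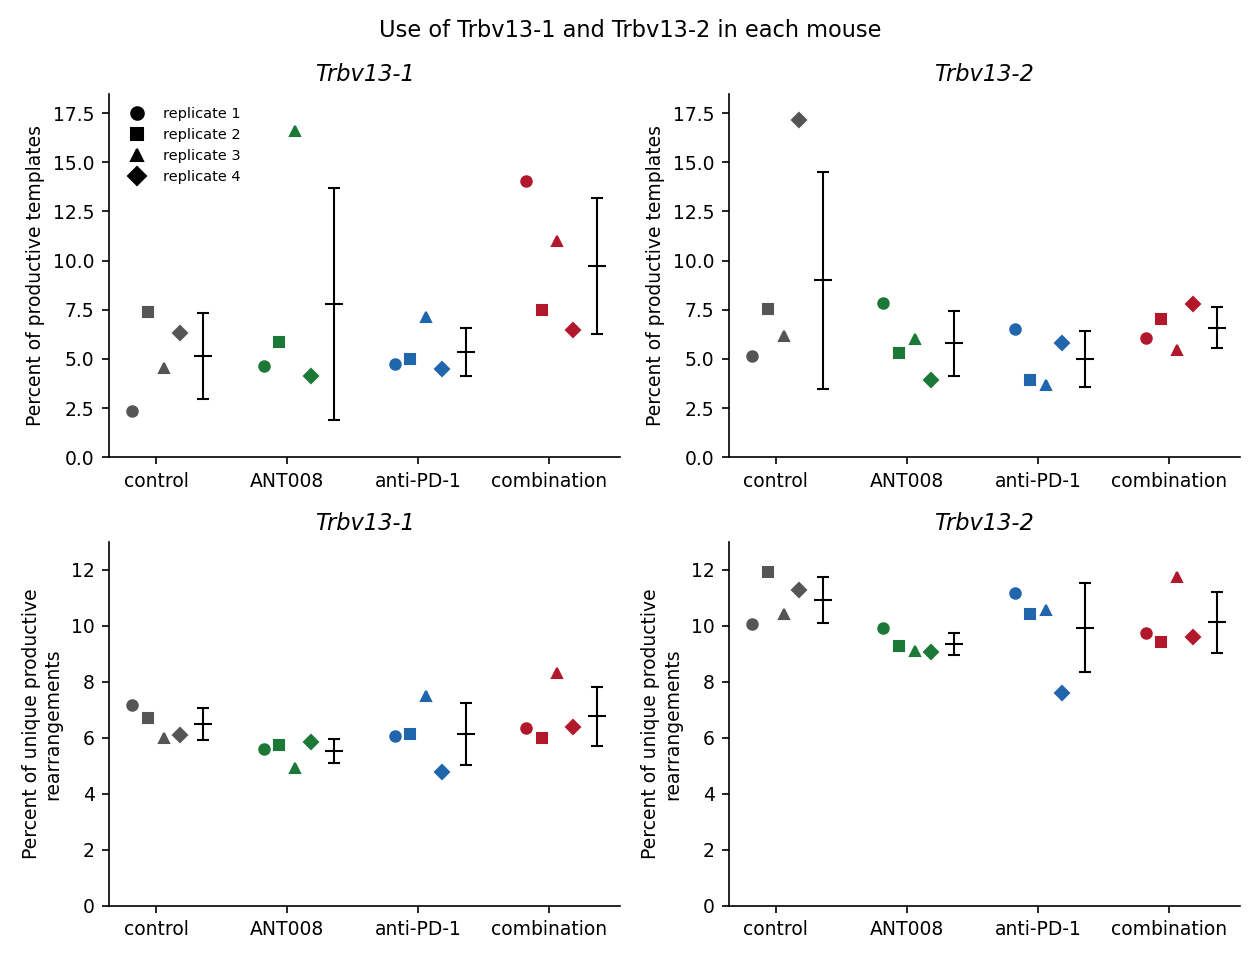
Percent of productive templates (top) and of unique productive rearrangements (bottom) assigned to Trbv13-1 and Trbv13-2, by group, with 1 point per mouse and its replicate number as the symbol. Horizontal marks and bars are the mean and SD of 4 mice, and both genes lie lower in all 4 ANT008 mice than in all 4 control mice in the bottom panels.

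Neither gene was called in any of the 4 edgeR contrasts on templates, against 3.85% of 26 V genes called for ANT008, 0% for anti-PD-1, 0% for the combination and 3.85% for the interaction of the 2 agents. At an unadjusted p under 0.05 the test found 2, 4, 4 and 4 of the 26 V genes, and neither Trbv13-1 nor Trbv13-2 was among them. DESeq2 also called neither gene. The interaction, which compares the effect of ANT008 given on top of anti-PD-1 with its effect alone, was 0.27 (SE 0.66, adjusted p 0.782) for Trbv13-1 and 1.04 (SE 0.58, adjusted p 0.448) for Trbv13-2.

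Among the V genes of the Vβ8 family, 0 of 3 were called in either direction in any contrast. Trbv13-3 averaged 8.23% in control and 12.8% in combination mice (0.64 on the log2 scale, SE 0.42, adjusted p 0.375 by edgeR). Trbv13-2 with the combination stood at -0.45 on that scale (SE 0.41, adjusted p 0.578 by edgeR). The median log2 fold change of the family was -0.039 (ANT008), -0.0069 (anti-PD-1) and 0.64 (combination), against 0.10, 0.36 and 0.15 for all 26 V genes. In each contrast the family median was the value of Trbv13-3. Of the V genes known from invariant NKT cells (Trbv13-2, Trbv29 and Trbv1) 0 of 3 were called. Their median log2 fold change was -0.64 (ANT008), -0.85 (anti-PD-1) and -0.45 (combination), in each case the value of Trbv13-2 itself. In the same order Trbv1 stood at -0.90, -1.02 and -1.38, whereas Trbv29 went the other way, at 0.046, 0.42 and 0.18. By edgeR, Trbv1 had an unadjusted p of 0.0347 in the combination (adjusted p 0.225).

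By unique rearrangements, which count each sequence once whatever its abundance, both genes were lower in ANT008 mice. Trbv13-1 was 7.19%, 6.72%, 5.98% and 6.09% in control replicates 1 to 4 and 5.60%, 5.76%, 4.92% and 5.84% in the ANT008 mice. Trbv13-2 was 10.1%, 11.9%, 10.4% and 11.3% in control mice and 9.94%, 9.28%, 9.11% and 9.08% in ANT008 mice. For both genes all 4 ANT008 mice lay below all 4 control mice. This was so for 7.69% of 26 V genes, and the 2 V genes were Trbv13-1 and Trbv13-2.

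The differences were -0.97 points for Trbv13-1 (SE 0.593, exact Dunnett p = 0.288) and -1.57 points for Trbv13-2 (SE 0.758, exact Dunnett p = 0.144), so neither passed the test over all 4 groups. An exact permutation of these 2 groups alone gave p = 0.0286 for both, the smallest that 70 splits allow. After each library was drawn down to the size of the smallest, the differences were -1.01 and -1.42 points (exact Dunnett p = 0.215 and 0.0985). With edgeR on unique rearrangements 0 of 26 V genes were called in each contrast. Before adjustment 2, 2, 1 and 2 V genes had a p under 0.05 (ANT008, anti-PD-1, combination, interaction).

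The unique shares of the remaining groups lay between or across these values. Trbv13-1 was 6.07%, 6.14%, 7.50% and 4.79% in anti-PD-1 mice and 6.37%, 6.01%, 8.31% and 6.38% in combination mice. Trbv13-2 was 11.2%, 10.4%, 10.6% and 7.60% in anti-PD-1 mice and 9.74%, 9.41%, 11.7% and 9.60% in combination mice. The lowest anti-PD-1 value of both genes was that of replicate 4, the smallest library, and the highest combination value of both was that of replicate 3. What part library size had in this was not tested beyond the equal-depth values above.

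Out-of-frame rearrangements followed the same order between control and ANT008. Trbv13-2 made up 8.65% ± 0.731 of unique out-of-frame rearrangements in control and 7.25% ± 0.518 in ANT008 mice, a difference of -1.41 points (SE 0.605, exact Dunnett p = 0.0844) with 3 of 4 ANT008 mice below every control mouse. For Trbv13-1 the values were 5.15% ± 0.368 and 4.12% ± 0.700, a difference of -1.03 points (SE 0.50, exact Dunnett p = 0.146), again with 3 of 4 mice below every control mouse. With rearrangements of a single template left out, both differences passed the exact Dunnett test before adjustment, at -2.10 points for Trbv13-1 (exact p = 0.00975) and -1.96 points for Trbv13-2 (exact p = 0.0116). That was an alternative setting, and its p-values were not among the 30 that were adjusted. Of the 30 comparisons of group means for the 2 genes, none passed a Benjamini-Hochberg adjustment, the lowest adjusted value being 0.479.

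The second question is how far each V gene was enriched in the productive repertoire over its frequency of rearrangement. Both genes were more frequent among productive rearrangements. Trbv13-2 made up 10.1% of unique productive and 7.77% of unique out-of-frame rearrangements, a difference of 2.32 points ± 0.647 that was positive in 16 of 16 mice (exact sign-flip permutation p = 3.05e-05, adjusted over 26 V genes 6.1e-05). Trbv13-1 made up 6.23% and 4.74%, a difference of 1.49 points ± 0.483, also positive in 16 of 16 mice (same exact p and adjusted value). The ratio of the 2 shares was 1.298 for Trbv13-2, 1.31 for Trbv13-1 and 1.29 for Trbv13-3.

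Of 26 V genes, 34.6% were called higher in productive rearrangements and 65.4% in either direction, so a call alone did not set these genes apart. By size in points, the Trbv13-2 difference had rank 2 and that of Trbv13-1 rank 5. By the ratio of the shares, Trbv12-2 (1.73), Trbv29 (1.47) and Trbv3 (1.42) stood above both genes. The Trbv13-2 difference was 2.27 points in control, 2.11 in ANT008, 2.51 in anti-PD-1 and 2.38 in combination mice, and that of Trbv13-1 was 1.34, 1.41, 1.55 and 1.64 points. In each group all mice were positive, with 0.125 as the smallest p that 4 mice allow. Counted in templates, in which expanded rearrangements weigh more, the differences were 2.70 points for Trbv13-1 (adjusted p 0.0538) and 0.86 points for Trbv13-2 (adjusted p 0.580, exact tests) and neither passed.

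**Figure D2:**
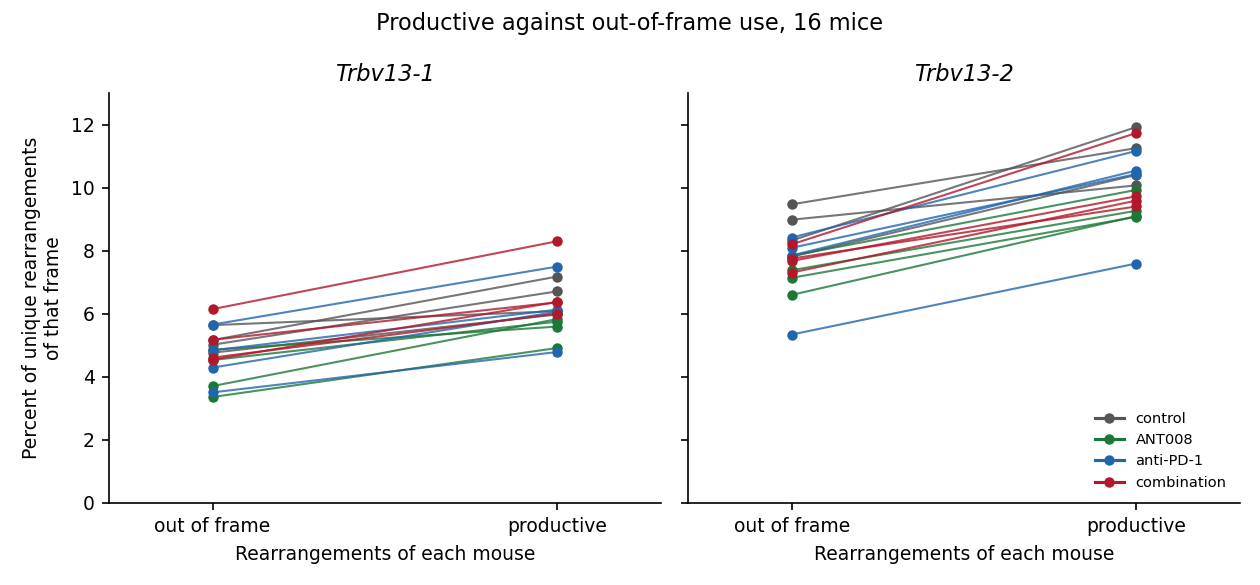
Share of Trbv13-1 and Trbv13-2 among unique out-of-frame (left) and unique productive (right) rearrangements, in percent, with 1 line per mouse colored by group. Every line of both genes rises from out of frame to productive, by 1.49 points on average for Trbv13-1 and 2.32 points for Trbv13-2.

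The J segment supplies the end of the CDR3, and the J partners of each V gene were compared with those of all other V genes in the same mouse. Trbv13-2 was joined to Trbj1-2 in 8.0% ± 2.67 of its unique productive rearrangements, against 5.26% for other V genes, a difference of 2.74 points that was positive in 14 of 16 mice (exact sign-flip permutation, adjusted p 0.00296). The Trbj1-2 share of Trbv13-2 ranged widely, from 4.22% to 12.5%. The highest value was that of anti-PD-1 replicate 4, which had the fewest unique productive Trbv13-2 rearrangements, 192. Trbv13-2 was joined less often to Trbj2-2 (4.11% against 5.77%, lower in 16 of 16 mice, adjusted p 0.000452) and to Trbj1-4 (5.85% against 7.33%, adjusted p 0.00669).

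Trbv13-1 was joined more often to Trbj1-1 (9.88% ± 1.47 against 8.68%, higher in 13 of 16 mice, adjusted p 0.0231). It was joined less often to Trbj2-5 (9.78% against 11.3%, adjusted p 0.0157) and to Trbj2-2 (4.50% against 5.68%, adjusted p 0.00283). Lower Trbj2-2 use was therefore measured for both genes. In all, 3 of 12 J genes were called for each V gene, against 31.3% of 252 V-J pairs, so the number of calls was not above that of the V genes as a whole. The most common partner was Trbj2-7, with 20.3% of Trbv13-1 and 21.7% of Trbv13-2 rearrangements, and the Trbj1 cluster as a whole took up 34.6% and 33.1%.

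Compared with each other, the 2 V genes differed in 2 of 12 J genes. Trbv13-2 used Trbj1-1 less than Trbv13-1 (difference -1.93 points, exact p = 0.00232, adjusted over 12 J genes 0.0278), and Trbj2-3 less (difference -1.45 points, adjusted 0.0337, exact test). In out-of-frame rearrangements the higher Trbj1-2 use of Trbv13-2 was not seen, at 0.14 points over other V genes (exact p = 0.842, adjusted p 0.910). The higher Trbj1-1 use of Trbv13-1 was likewise not seen there, at -1.54 points (adjusted p 0.0961), and its lower Trbj2-2 and Trbj2-5 use stood at 1.03 and 0.79 points. The lower Trbj1-4 use of Trbv13-2 was present out of frame as well, at -2.06 points (adjusted p 0.0141, exact test).

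**Figure D3:**
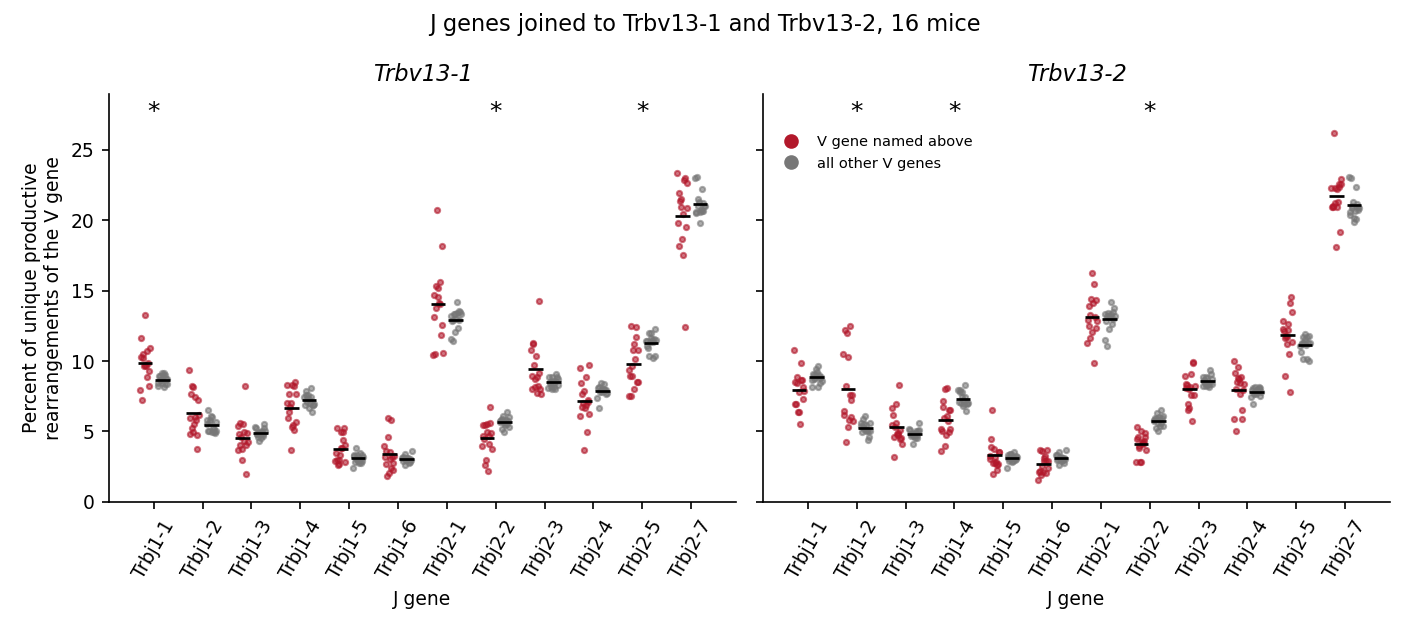
Percent of the unique productive rearrangements of Trbv13-1 (left) and Trbv13-2 (right) that were joined to each J gene (red), beside the same percent for all other V genes (gray), with 1 point per mouse and a line at the mean of 16 mice. Asterisks mark adjusted p under 0.05. The Trbj1-2 points of Trbv13-2 reach 12.5%, in anti-PD-1 replicate 4, the smallest library, while those of other V genes stay near a mean of 5.26%. Gray points pool all other V genes and so rest on more rearrangements than red points.

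The CDR3s were close to average in length. Trbv13-1 CDR3s averaged 13.8 amino acids against 14.02 for other V genes, shorter in 16 of 16 mice (difference -0.19, exact sign-flip permutation, adjusted p 6.63e-05), while the Trbv13-2 difference was -0.00011 amino acids (exact p = 0.997). Of 21 V genes, 85.7% were called for length. Trbv13-2 kept more of its V end, with 2.17 nucleotides trimmed against 2.70 for other V genes, lower in 16 of 16 mice (difference -0.52, adjusted p 6.63e-05), and Trbv13-1 lost 2.42 against 2.66 (difference -0.24, adjusted p 0.00011). Both had fewer nucleotides added at the joints, by -0.26 for Trbv13-1 (adjusted p 0.000152) and -0.10 for Trbv13-2 (adjusted p 0.00965). For trimming 90.5% and for additions 81% of the 21 V genes were called.

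The V-coded start of the CDR3 was kept in most rearrangements. Of unique Trbv13-1 rearrangements 83.4% ± 4.39 kept the start cysteine, alanine, serine, serine, and 43.8% ± 3.13 had aspartate after it. Of Trbv13-2 rearrangements 92.3% ± 2.15 kept the start cysteine, alanine, serine, glycine, and 51.3% ± 2.01 had aspartate after it. When the fourth residue was set aside, 851 CDR3s were found in both genes, which is 14.8% of 5737 Trbv13-1 CDR3s with that start and 9.003% of 9452 Trbv13-2 CDR3s with theirs.

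The most frequent rearrangement of each gene differed from mouse to mouse, and in some mice it held most of the gene's templates. In the lines below the CDR3 is given as nucleotides from the cysteine codon to the end of the read, which stops 1 codon before the last residue, and capitals mark nucleotides added at the joints. They are shown because these rearrangements made the 4 highest template shares of the 2 genes, and because the last pair differs at 1 base.
Trbv13-1 leader of ANT008 replicate 3: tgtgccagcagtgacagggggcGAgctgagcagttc
Trbv13-1 leader of combination replicate 1: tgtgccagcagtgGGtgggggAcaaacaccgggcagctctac
Trbv13-1 leader of combination replicate 3: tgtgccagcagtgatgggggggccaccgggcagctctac
Trbv13-2 leader of control replicate 4: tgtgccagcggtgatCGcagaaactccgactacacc
Trbv13-1 leader of control replicate 3: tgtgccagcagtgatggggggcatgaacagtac
Trbv13-2 leader of combination replicate 4: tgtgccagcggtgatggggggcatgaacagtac

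In ANT008 replicate 3 the leading Trbv13-1 rearrangement (Trbj2-1) had 1589 templates, 13.8% of all productive templates (Wilson 95% interval 13.2 to 14.4) and 83.1% of Trbv13-1 templates. It was the most frequent rearrangement of that mouse. In combination replicate 1 the leading rearrangement (Trbj2-2) had 2443 templates, 7.31% (7.04 to 7.60), and was also first in its mouse. The leader of combination replicate 3 (Trbj2-2) had 2413 templates, 4.11% (3.95 to 4.28). Its nucleotide sequence, which holds no added nucleotide, also led Trbv13-1 in ANT008 replicate 2 with 317 templates, 0.963% (0.863 to 1.07), and was found in combination replicate 1.

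For Trbv13-2 the largest rearrangement was the leader of control replicate 4 (Trbj1-2), with 4737 templates, 12.7% (12.4 to 13.05) of productive templates and 74.2% of the gene. The next Trbv13-2 rearrangement of that mouse had 341 templates. Over 16 mice the leading rearrangement of Trbv13-1 took up a median of 1.37% of productive templates (range 0.119 to 13.8) and exceeded 1% in 9 mice. That of Trbv13-2 took up a median of 0.404% (range 0.160 to 12.7) and exceeded 1% in 5 mice. The leading CDR3s were nearly all different, 15 among 16 mice for Trbv13-1 and 16 among 16 for Trbv13-2. In the last pair of the lines above, from control replicate 3 and combination replicate 4, the nucleotides differed at 1 of 33 bases, the V-coded base of the fourth residue, and the CDR3s were found in 8 and 4 mice.

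Rearrangements above 0.5% of productive templates numbered 24 in 14 mice for Trbv13-1 and 14 in 7 mice for Trbv13-2. For Trbv13-1 there were 4 in control, 6 in ANT008, 4 in anti-PD-1 and 10 in combination mice, with at least 2 in each combination mouse. For Trbv13-2 there were 5, 5, 2 and 2. These counts were not tested and were not set beside those of all V genes.

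The leading rearrangement took up 32.8% ± 28.95 of Trbv13-2 templates in control, 12.2% ± 9.34 in ANT008, 6.89% ± 4.50 in anti-PD-1 and 5.84% ± 2.09 in combination mice (SD, n = 4). Control replicates 1 to 4 stood at 26.9%, 23.5%, 6.63% and 74.2%. The differences from control were -25.9 points with anti-PD-1 (SE 10.9, exact Dunnett p = 0.0319) and -27.0 points with the combination (SE 10.9, exact Dunnett p = 0.0217), and both had an adjusted value of 0.479 over the 30 comparisons. Control replicate 3 lay within the range of the treated mice. Without control replicate 4 the differences were -12.2 points (exact p = 0.107) and -13.2 points (exact p = 0.0746). For Trbv13-1 the same measure was 19.0% ± 13.6, 35.5% ± 32.2, 20.3% ± 11.6 and 32.7% ± 16.9, and no difference from control passed the test (lowest exact Dunnett p = 0.571).

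With the leading rearrangement set aside, the remaining Trbv13-1 templates made up 2.23%, 4.71%, 4.01% and 4.84% of all productive templates in control mice and 6.73%, 5.26%, 6.86% and 5.74% in combination mice. The combination mice lay above all control mice, which was so for 7.69% of 26 V genes. The ANT008 mice ranged from 2.81% to 4.92% and the anti-PD-1 mice from 3.33% to 5.25%. The remaining Trbv13-2 templates ranged from 3.75% to 5.76% in control, 3.71% to 6.12% in ANT008, 3.50% to 6.34% in anti-PD-1 and 5.06% to 7.49% in combination mice, with overlap. This measure was chosen after the values were seen and was given no test of its own. When the leading rearrangement of every V gene was removed from numerator and total alike, the combination differed from control by 2.08 points for Trbv13-1 (exact Dunnett p = 0.306).

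**Figure D4:**
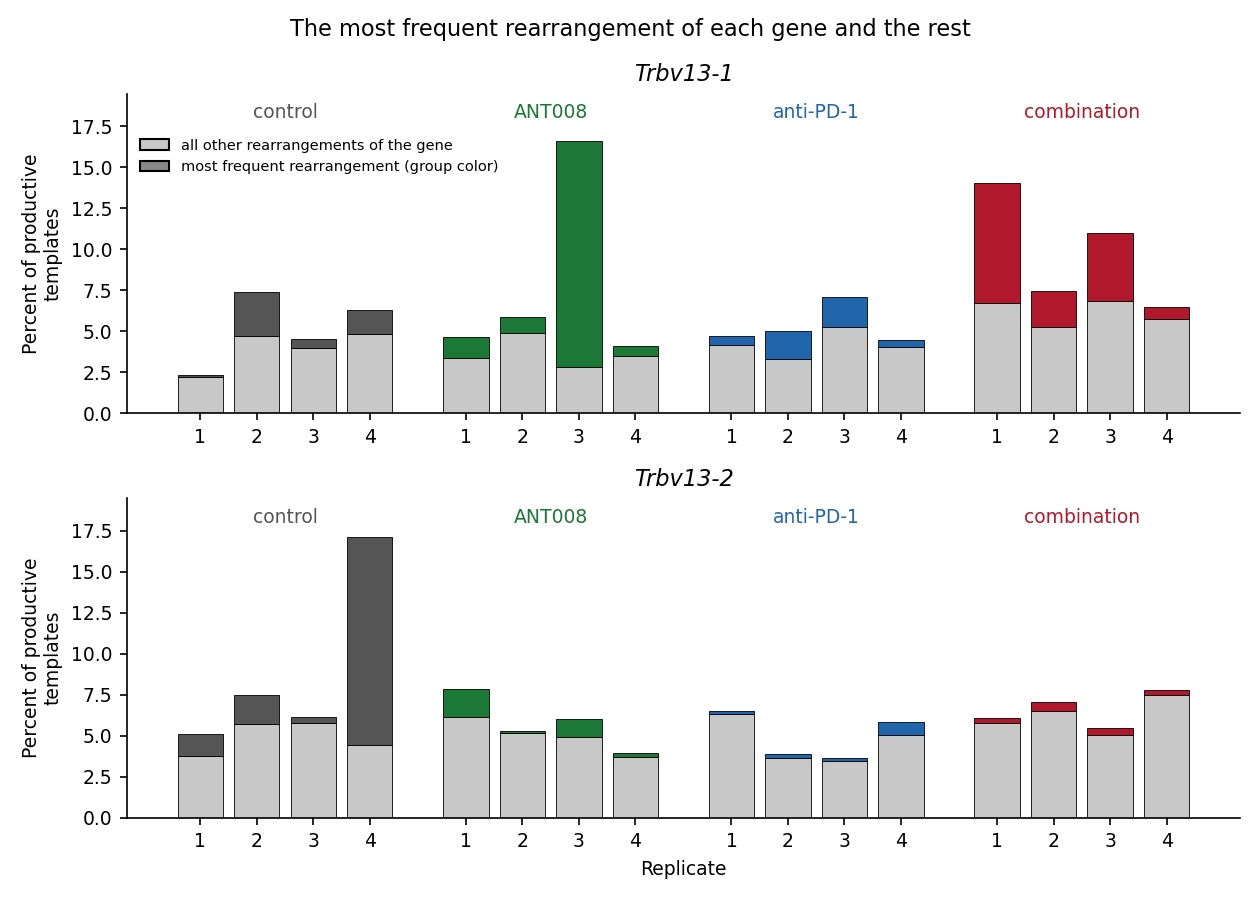
Percent of all productive templates in the most frequent rearrangement (group color) and in all other rearrangements (gray) of Trbv13-1 (top) and Trbv13-2 (bottom), with 1 bar per mouse. The tallest colored segments are ANT008 replicate 3 for Trbv13-1 (13.8%) and control replicate 4 for Trbv13-2 (12.7%), and the gray segments of Trbv13-1 are higher in all 4 combination mice than in the control mice.

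The same rearrangements were seen in the V-J pairs. Trbv13-2 with Trbj1-2, the pair of the Trbv13-2 leader of control replicate 4, made up 3.81% of productive templates in control and 0.683%, 0.488% and 0.429% in ANT008, anti-PD-1 and combination mice. Trbv13-1 with Trbj2-2, the pair of the leading rearrangements of combination replicates 1 and 3, made up 0.210%, 0.452%, 0.196% and 3.06%. The edgeR test over 246 V-J pairs called 0% in each comparison with control, at 35, 43 and 39 pairs with an unadjusted p under 0.05. For these pairs the combination against control gave log2 fold changes of -3.15 (SE 1.07) and 3.86 (SE 1.28), both with an edgeR adjusted p of 0.206. DESeq2 called 15, 7 and 16 pairs, among them Trbv13-2 with Trbj1-2 in all 3 comparisons (adjusted p 0.0285, 0.0181 and 0.0028), Trbv13-1 with Trbj2-2 in the combination (adjusted p 0.0209) and Trbv13-1 with Trbj1-5 with ANT008 (lower, adjusted p 0.00902). The 3 comparisons share the same control mice, and in control replicate 4 the leader alone was 12.7% of productive templates. The Trbv13-1 leaders with Trbj2-2 were 7.31% and 4.11% in combination replicates 1 and 3.

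The last question is which CDR3s of the 2 genes recurred between mice. For Trbv13-2, 1 CDR3 with Trbj1-1 was found in 16 of 16 mice, made by 21 different nucleotide rearrangements, and was rare in all of them, at a mean of 0.0482% and at most 0.0873% of productive templates. The next most widespread, with Trbj2-5, Trbj2-3, Trbj2-3 and Trbj2-1, were found in 13, 12, 10 and 9 mice. For Trbv13-1, 1 CDR3 with Trbj2-3 was found in 15 mice, made by 12 rearrangements, with at most 0.395%. It was absent only in ANT008 replicate 2, whose count of 0 allows up to 0.00911%. Of the next 4, 1 with Trbj2-3 was found in 12 mice, and 3 with Trbj2-7 in 10, 9 and 8.

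The nucleotide forms of the most widespread CDR3 of each gene are given below, in the version shared by the most mice. Capitals mark the nucleotides added at the joints of that version. The third is that of the Trbv13-1 CDR3 with Trbj2-7 in 9 mice, which had the highest share in 1 mouse. Numbers of mice in the lines are those of the CDR3, whichever rearrangement made it. The versions shown were themselves found in 11, 7 and 5 mice, in the order of the lines. Of the rearrangements that made these CDR3s, 6 of 21, 1 of 12 and 0 of 12 held no added nucleotide.
Trbv13-2 with Trbj1-1, in 16 mice: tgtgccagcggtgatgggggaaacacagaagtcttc
Trbv13-1 with Trbj2-3, in 15 mice: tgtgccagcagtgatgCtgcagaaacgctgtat
Trbv13-1 with Trbj2-7, in 9 mice: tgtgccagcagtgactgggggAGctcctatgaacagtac

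The Trbv13-2 CDR3 in 16 mice had means of 0.0508% in control, 0.0544% in ANT008, 0.0499% in anti-PD-1 and 0.0376% in combination mice. The Trbv13-1 CDR3 in 15 mice averaged 0.0812%, 0.0555%, 0.128% and 0.229%. The third CDR3 reached 0.578%, 0.852%, 0.0494% and 0.0111% in combination replicates 1 to 4 and was found in 1 of 4 control mice (0.0995%), 2 of 4 ANT008 mice and 2 of 4 anti-PD-1 mice. The combination mice overlapped the others for this CDR3, and no test was run on single CDR3s.

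Sharing was more common in Trbv13-2. Of its distinct CDR3s 9.12% were found in at least 2 mice, against 7.08% for Trbv13-1, 6.31% for Trbv13-3 and 6.87% for all V genes but Trbv13-1 and Trbv13-2. At least 4 mice shared 129 Trbv13-2 and 43 Trbv13-1 CDR3s. These percents rise with the number of rearrangements sampled, which was highest for Trbv13-2, and were not tested. Shared CDR3s were close to germline. Rearrangements whose CDR3 was found in 4 or more mice held a mean of 1.43 added nucleotides for Trbv13-2 and 1.39 for Trbv13-1, against 3.98 and 3.73 in those found in 1 mouse, and 27.7% and 28.6% of them held none, against 5.19% and 6.42%.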

How the data were processed

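TCRβ sequencing was performed by the immunoSEQ service on T cells of 16 mice, 1 per sample, grouped by the treatment in the labels. The deposited files hold 1 row per unique 87-nucleotide rearrangement with its template count as estimated by the service, along with other deposited values, namely CDR3 length, trimmed and inserted nucleotides. The aligner and the genome build are not given in the sources used here, so no coordinates are printed, and gene symbols were matched by name to the GRCm38.p6 RefSeq table (33 of 33 V genes). The genes, lists and tests were chosen with earlier results of these data known. The V genes named are Trbv13-1, Trbv13-2, Trbv13-3, those of invariant NKT cells and the 3 most alike. J genes are the 3 highest and 3 lowest called. Clones are the leading rearrangement of each mouse and the 5 most widespread CDR3s of each gene.

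Templates per V gene (at least 10 in total) and per V-J pair (mean of at least 10) were tested with edgeR 4.0.16 in R 4.3.3, with the library size fixed at productive templates and Benjamini-Hochberg adjustment over all genes or pairs. DESeq2 1.42.0 was an alternative. Group means of 5 measures for each of 2 genes were compared with control by a Dunnett statistic over all 63063000 assignments of the mice, in place of the analysis of variance named in the study's methods. Differences within mice were tested by sign-flip over 65536 patterns. J pairing and CDR3 features were tested for V genes with a mean of at least 50 unique rearrangements. Scripts were tested on simulated data. With 4 mice per group, the p-values for treatment set group differences against the spread between mice. Sign-flip p-values rest on how consistently a difference within mice recurred from mouse to mouse.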

Additional observations from a re-analysis of the deposited data

Results flagged for a closer look

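In 40 groups of 4 mice, 5 measures of the 2 genes in 4 treatment groups, the highest or lowest mouse was set against the gap rule of Dixon at its 95% level, which chance alone passes in about 1 of 20 groups. It singled out 4 values. Trbv13-1 took up 16.6% of productive templates in ANT008 replicate 3, against 4.13% to 5.88% in the other ANT008 mice, and its leading rearrangement (Trbj2-1) held 83.1% of these templates. In combination replicate 3, Trbv13-1 took up 8.31% of unique productive rearrangements against a next highest of 6.38%, and Trbv13-2 took up 11.7% against a next highest of 9.74%. In control replicate 1, Trbv13-2 took up 11.9% of out-of-frame templates against a next highest of 4.80%. The cause of these values was not tested.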

How the results depend on the processing

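Values below are differences from control in points, unless said otherwise. Leaving out the most frequent rearrangement of each V gene turned the sign of several template results, none of which had passed a test. Trbv13-1 template shares became -1.28 with ANT008 and -0.54 with anti-PD-1, and Trbv13-2 became 0.40 with the combination and -1.76 out of frame with anti-PD-1. Trbv13-2 minus Trbv13-1 became 1.02. The edgeR log2 fold changes became -0.30 and -0.12 for Trbv13-1 with ANT008 and anti-PD-1 and 0.067 for Trbv13-2 with the combination. For Trbv13-1 with ANT008 they were -0.22 in unique rearrangements and -0.68 in out-of-frame templates. With anti-PD-1 the Trbv13-1 value was -0.25 by DESeq2, -0.22 with TMM factors, -0.046 in unique rearrangements and -0.30 out of frame, and Trbv13-2 out of frame stood at 0.020.

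For the share of Trbv13-2 templates in its leading rearrangement, the exact Dunnett p against control was 0.0319 (anti-PD-1) and 0.0217 (combination). Neither passed the adjustment over the 30 comparisons (0.479 for both). Even before adjustment, neither passed over the 2 groups alone (-25.9 for anti-PD-1 and -27.0 for the combination, exact permutation p = 0.0857 for both). Nor did either pass on the log2 scale (-2.001, p = 0.065, and -2.09, p = 0.0535, exact) or without the leading rearrangement (-8.14 and -8.81). Lower unique shares with ANT008 passed over the 2 groups alone, before adjustment (-0.97 and -1.57, exact permutation p = 0.0286). Without rearrangements of 1 template, out-of-frame unique shares passed before adjustment with ANT008 (-2.10 and -1.96) and, for Trbv13-2, with anti-PD-1 (-1.76). Productive minus out-of-frame share did not pass in templates (2.70 and 0.86). Called J genes for Trbv13-1 numbered 1 in templates and 0 out of frame, and for Trbv13-2 7 out of frame. These counts were not set beside the share of all V-J pairs called in the same settings. The next J and nucleotide values are the named V gene minus all other V genes, over all mice, and not differences from control. For Trbj1-1 the Trbv13-1 difference in J share turned to -0.32 points (templates) and -1.54 (out of frame). It turned to 0.79 (out of frame) for Trbj2-5, and to 4.16 (templates) and 1.03 (out of frame) for Trbj2-2. Weighted by templates, the difference from other V genes in nucleotides trimmed was 0.084 for Trbv13-1 and -0.24 for Trbv13-2. That in nucleotides added was 0.040 for Trbv13-2, and without rearrangements of 1 template it was -0.058. DESeq2 called 2, 1 and 2 V-J pairs of the 2 genes, among 15, 7 and 16 called of all 246 pairs (ANT008, anti-PD-1, combination).

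Replicate numbers are those of the titles. The names inside the files give the same treatment in all 16 samples but another number in 13. Of 24 pairs of same-numbered mice, 9 correlated above 0.1 (r from -0.47 to 0.45), and 6 of 16 mice correlated best with their own number. These values do not settle whether the title numbers pair the mice. With the number as a replicate block edgeR called 0 V genes in each contrast, Trbv13-1 with anti-PD-1 stood at a log2 fold change of -0.000176, and the leading share of Trbv13-2 with anti-PD-1 at -25.9 (exact permutation p = 0.0615).

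When each mouse was left out in turn, Trbv13-1 template shares ranged from -0.26 to 3.896 (ANT008), -0.73 to 0.94 (anti-PD-1) and 3.17 to 5.69 (combination), its unique shares from -0.83 to 0.077 (anti-PD-1) and -0.24 to 0.53 (combination), its leading share from -3.39 to 6.95 (anti-PD-1) and, with the combination, its out-of-frame shares from -1.11 to 0.86 (templates) and -0.37 to 0.16 (unique). Trbv13-2 template shares ranged from -5.29 to -1.29 (anti-PD-1) and -3.69 to 0.32 (combination), its unique share with ANT008 from -1.85 to -1.24, and its leading share from -29.3 to -6.82, -34.7 to -12.2 and -35.7 to -13.2 (ANT008, anti-PD-1, combination). Its out-of-frame template shares ranged from -2.23 to 0.26, -1.18 to 1.91 and -2.10 to 0.38, and its unique out-of-frame share with ANT008 from -1.69 to -1.13. Trbv13-2 minus Trbv13-1 in templates ranged from -1.17 to 0.25. The CDR3 length of Trbv13-2 minus that of other V genes ranged from -0.010 to 0.015 amino acids. The log2 fold changes ranged from -0.074 to 0.83 (Trbv13-1, ANT008), -0.18 to 0.28 (Trbv13-1, anti-PD-1) and -0.64 to 0.071 (Trbv13-2, combination). The unique excess of Trbv13-2 over Trbv13-1 and the productive excess of both genes passed whichever mouse was left out.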

Other observations

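Of the 32 leading rearrangements, 16 held 2 or more added nucleotides, and 5 of these were also found with identical nucleotides in another mouse, at 1 to 2 templates. The other mouse was anti-PD-1 replicate 4, the smallest library, in 3 cases and ANT008 replicate 4 in 2. The Trbv13-2 leader of control replicate 4, with 4737 templates, had 2 templates in anti-PD-1 replicate 4. Whether these came from separate cells or were carried between libraries was not tested.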
